A study of Mus musculus with 6 samples.

Results

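Collagens other than type IV were followed in glomeruli, the filtering units of the kidney, of mice whose podocytes lacked Vhl. Members were all probe sets whose array annotation gives 1 symbol of the form Col, number, a, number, without Col4a1 to Col4a6, which left 70 probe sets of 36 genes out of 45101 probe sets on the array. Collagens are trimers of chains that carry long repeats of glycine-led triplets. The fibrillar types (I, II, III, V and XI among them) form the ropes of interstitial tissue, type VI forms beaded filaments beside basement membranes, types XV and XVIII (multiplexins) carry glycosaminoglycan chains and sit at basement membranes, and the FACIT types attach to the surface of fibrils. In the healthy glomerulus, type IV forms the capillary basement membrane, and the mesangium, the stalk of contractile cells and matrix between the capillaries, is known to hold types V and VI. In scarring, types I and III accumulate.

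In 3 mice, podocin-Cre (Pod-Cre) had excised a floxed von Hippel-Lindau gene (called Vhl-deleted here), and these were set against 3 wild-type littermates. All 6 were female and aged 6 weeks. The Vhl-deleted mice had been chosen for urinary albumin at or below the wild-type average, measured at 4 weeks, so they were not proteinuric then. Pod-Cre is active in podocytes, so the other glomerular cells keep Vhl. Breeders carried 1 copy of Pod-Cre and 2 floxed alleles, and whether the littermate controls carried floxed alleles is not stated in the labels. Each mouse gave glomeruli isolated with magnetic beads and 1 Affymetrix array, which the labels call a biological replicate.

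Every array had been scaled to a 2% trimmed mean of 500, and precision is limited by how few arrays there were. Egln3, a target of the hypoxia-inducible factors (HIF) that VHL marks for degradation, had signals of 3678 to 5098 in Vhl-deleted and 144 to 171 in wild-type arrays. The Vhl probe set 1434708_at was at 612 ± 6.46 in Vhl-deleted and 727 ± 74.1 in wild-type arrays (SD, n = 3 each). The other Vhl probe set, 1421071_at, was at 215 ± 18.6 and 246 ± 23.8, and its groups overlapped. The adjusted p was 0.978 for each in the limma fit over all probe sets. All 12 podocyte markers, all 12 endothelial markers and all 22 tubule markers with a probe set were bright enough to be tested, against 4 of 10 interstitial fibroblast markers. Of all 18193 genes with a probe set of 1 symbol, 11159 were. Wild-type replicate 3 stood apart: its mean tubule marker level, on the log2(signal + 28) scale, was 10.38, against 11.82 to 12.69 in the 3 Vhl-deleted arrays and 12.08 and 12.37 in the other wild-type arrays. Its podocyte marker mean was 12.96, against 12.24 to 12.49 in Vhl-deleted arrays and 12.52 and 12.54 in the other wild-type arrays. Results that rest on it are given with and without it. In such mixed tissue, fewer cells of a type and less RNA per cell cannot be told apart.

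Of the 36 genes, 13 had a probe set above the filter on dim probe sets, a signal of about 96.4, and were tested: Col1a2, Col3a1, Col5a1, Col5a2 and Col27a1 (fibrillar), Col6a1, Col6a2 and Col6a3 (type VI), Col15a1 and Col18a1 (multiplexins), Col12a1 and Col16a1 (FACIT) and Col8a1 (short chain network). None of them passed the threshold in either direction. By limma with Benjamini-Hochberg adjustment over all 11159 genes, 0 of 13 rose, against 0.0717% of all genes tested, and 0 of 13 fell, against 0.00896%. The lowest adjusted p was 0.917. Changes below are log2 differences of signal + 28, Vhl-deleted minus wild-type, with standard errors (SE), and they ran from -0.30 to 0.55. The median over the 13 was 0.11 and over all genes tested 0.00. In 8 of the 13 the change was positive, against 50.9% of all genes tested. In 11 of the 13 the 95% interval lay within a 2-fold change of signal + 28 either way. At an unadjusted p under 0.05, 2 of 13 were higher in Vhl-deleted arrays, Col6a3 and Col8a1, against 2.51% of all genes tested. In 2 of 13 the 3 Vhl-deleted arrays all lay above the 3 wild-type arrays, against 5.04% of all genes tested, and in 0 of 13 they all lay below, against 5.64%.

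**Figure D1:**
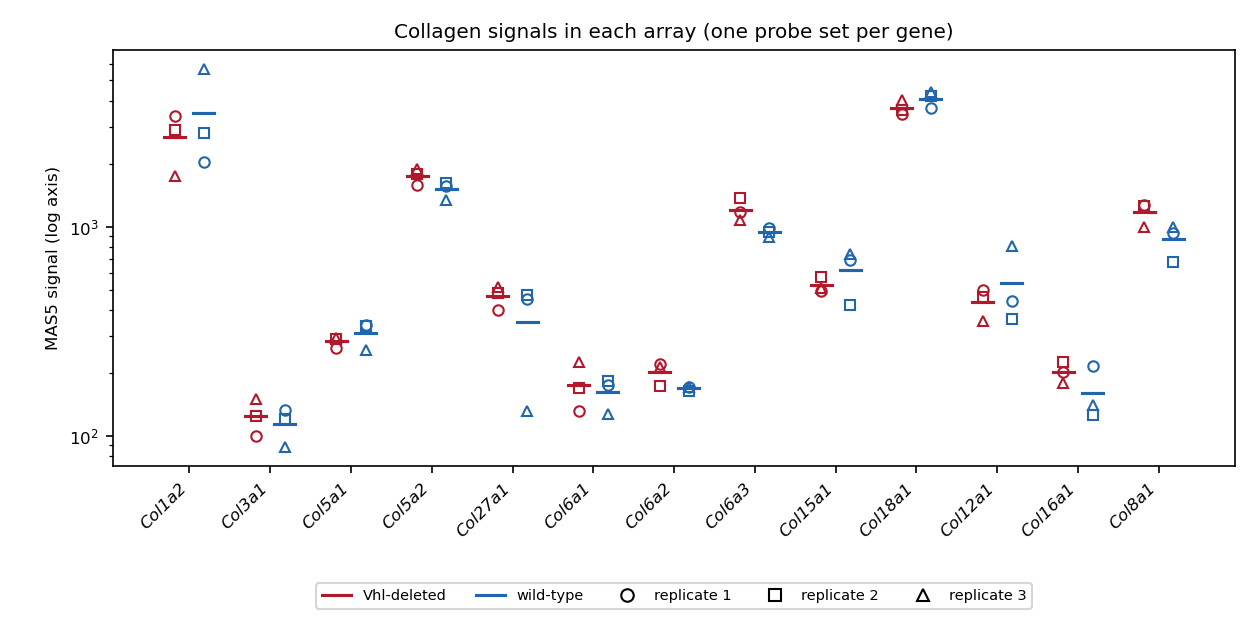
MAS5 signal (log axis) of the 13 tested collagen genes in each array, Vhl-deleted at the left and wild-type at the right of each gene, with a symbol for each replicate number and a bar at the group mean. Groups overlap in all but Col6a2 and Col6a3, and wild-type replicate 3 is the extreme array for Col1a2 (5638), Col12a1 (807) and Col27a1 (132).

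Promoter letters are shown for the members of lowest p, Col6a3 and Col8a1, and for Col1a2, which had the widest range between arrays after Col27a1. HIF binds the cores ACGTG and GCGTG. Each line gives 250 bases before to 50 after the gene's start, 5′ to 3′ (RefSeq, build GRCm38.p6), with matches to either core on either strand in capitals.
Col6a3, chr1:90843922-90844221, minus strand: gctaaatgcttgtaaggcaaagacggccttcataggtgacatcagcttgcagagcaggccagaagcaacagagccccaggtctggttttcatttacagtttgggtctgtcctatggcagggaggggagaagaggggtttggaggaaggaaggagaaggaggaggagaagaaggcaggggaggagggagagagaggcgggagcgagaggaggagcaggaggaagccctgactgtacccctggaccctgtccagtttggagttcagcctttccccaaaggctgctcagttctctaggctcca
Col8a1, chr16:57754688-57754987, minus strand: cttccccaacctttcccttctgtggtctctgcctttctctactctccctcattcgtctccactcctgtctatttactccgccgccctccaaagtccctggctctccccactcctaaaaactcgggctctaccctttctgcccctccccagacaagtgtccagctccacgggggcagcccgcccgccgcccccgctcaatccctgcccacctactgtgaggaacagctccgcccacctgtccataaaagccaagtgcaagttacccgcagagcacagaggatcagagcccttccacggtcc
Col1a2, chr6:4505368-4505667, plus strand: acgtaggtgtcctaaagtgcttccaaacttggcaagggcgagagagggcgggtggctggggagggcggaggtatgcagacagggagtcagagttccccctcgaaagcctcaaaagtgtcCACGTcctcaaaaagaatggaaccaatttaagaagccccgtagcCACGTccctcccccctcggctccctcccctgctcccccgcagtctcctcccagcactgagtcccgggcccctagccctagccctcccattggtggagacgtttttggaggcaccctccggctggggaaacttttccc
Col6a3 and Col8a1 have no match in this window, and Col1a2 has 2 matches, both to ACGTG on the opposite strand. The Col27a1 promoter, not printed here, has no match in its window. A core was present in 4 of the 13 promoters listed for tested members (11 of the 13 genes had one) and in 9 of 31 listed for all members (28 of 36 genes). The share over all 32851 promoters of this length was 43.8%. ACGTG and its reverse complement overlap inside CACGTG, so a promoter was counted once however many matches it held. Letters in a window do not show binding.

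Type VI is built of an α1, an α2 and most often an α3 chain, and its 3 classical chains all had positive changes, between 0.09 and 0.34. Col6a3, which encodes the long α3 chain, had the lowest p of all tested members. Its signal (probe set 1424131_at) was 1177, 1366 and 1069 in Vhl-deleted replicates 1 to 3, against 982, 939 and 895 in wild-type replicates 1 to 3. Every Vhl-deleted array thus lay above every wild-type array, with the 2 groups closest at 1069 and 982. The means were 1204 ± 150 and 939 ± 43.3 (SD, n = 3 each), a ratio of 1.28 and a log2 change of 0.34 (SE 0.12, 95% interval 0.06 to 0.63, unadjusted p = 0.0257, limma adjusted p = 0.917). Without wild-type replicate 3 the change was 0.31 (95% interval -0.003 to 0.62). Leaving out each array gave 0.25 to 0.42. Col6a2, the α2 chain, had 219, 173 and 213 in Vhl-deleted arrays, against 171, 164 and 171 in wild-type arrays (1426947_x_at), again without overlap but with the nearest arrays at 173 and 171. Its change was 0.22 (95% interval -0.15 to 0.58, limma adjusted p = 0.944). Its other bright probe set (1452250_a_at) overlapped between the groups and had a change of 0.07. Col6a1, the α1 chain, had 132, 170 and 225 in Vhl-deleted arrays, against 175, 183 and 127 in wild-type arrays. The groups overlapped, with Vhl-deleted replicate 3 highest and wild-type replicate 3 lowest, and the change of 0.09 turned to -0.05 without wild-type replicate 3. The newer chains Col6a4 and Col6a5 were below the filter. Their changes were 0.36 and -0.29 on the 2 Col6a4 probe sets and -0.21 for Col6a5.

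Col8a1 encodes the α1 chain of type VIII, a short collagen that forms hexagonal sheets in vascular and corneal basement membranes. Its brightest probe set (1455627_at) had 1269, 1254 and 995 in Vhl-deleted arrays, against 929, 674 and 1000 in wild-type arrays. One array on each side, Vhl-deleted replicate 3 and wild-type replicate 3, fell at nearly the same value, so the groups just overlapped. The means were 1172 ± 154 and 868 ± 171 (SD, n = 3 each), a ratio of 1.35 and a change of 0.43 (SE 0.18, 95% interval 0.01 to 0.85, unadjusted p = 0.0447, limma adjusted p = 0.944). The other bright probe set (1418440_at) had 574, 601 and 516 in Vhl-deleted arrays, against 470, 278 and 371 in wild-type arrays. These did not overlap, and the change there was 0.59 (SE 0.19, adjusted p = 0.938 in the fit over all probe sets). The third (1418441_at), below the filter, had a change of 0.57, so all 3 probe sets of this gene agreed in sign. Without wild-type replicate 3 the change of the brightest was 0.54 (adjusted p = 0.862), and without wild-type replicate 2, its lowest array, 0.27. With the tubule marker mean of each array as a covariate it was 0.56 (95% interval 0.25 to 0.86), with an adjusted p of 0.269, the lowest of any tested member in any setting tried. Col8a2, the partner chain of Col8a1, was below the filter and had a change of -0.44 (SE 0.30, adjusted p = 0.978 in the fit over all probe sets).

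Among the fibrillar chains, Col1a2 (the α2 chain of type I) varied widely between mice of one group. Its signal (1450857_a_at) was 3384, 2906 and 1743 in Vhl-deleted arrays, against 2036, 2804 and 5638 in wild-type arrays. The highest array, wild-type replicate 3, was 3.23 times the lowest, Vhl-deleted replicate 3, and the other 4 lay between 2036 and 3384 in both groups. The second bright probe set (1423110_at) had the same highest and lowest array, with 1257, 1214 and 788 in Vhl-deleted arrays, against 970, 1256 and 1903 in wild-type arrays. The change was -0.30 (95% interval -1.24 to 0.64, limma adjusted p = 0.944) with all arrays and 0.11 (-0.56 to 0.78) without wild-type replicate 3. The α1 chain of type I, Col1a1, was below the filter on both of its probe sets. The brighter (1455494_at) had 64.3, 38.5 and 42.0 in Vhl-deleted arrays, against 23.5, 19.1 and 33.0 in wild-type arrays. These dim values did not overlap, and the change of 0.51 had an adjusted p of 0.978 in the fit over all probe sets, which sets no filter. On the dimmer probe set (1423669_at) the groups overlapped. Col3a1, the single chain of type III, had 99.9, 125 and 150 in Vhl-deleted arrays, against 133, 121 and 88.2 in wild-type arrays, a change of 0.11 (SE 0.22) that became -0.03 without wild-type replicate 3.

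Type V regulates the width of type I fibrils. Col5a2 (1422437_at) had 1579, 1784 and 1876 in Vhl-deleted arrays, against 1565, 1615 and 1343 in wild-type arrays. The groups overlapped only between 1579 and 1615, and the change was 0.21 (95% interval -0.07 to 0.49, limma adjusted p = 0.944). It was 0.13 without wild-type replicate 3, the dimmest array on this probe set and on the second one (1450625_at), where that array had 206. Col5a1 gave different signs on its probe sets. The brightest (1434479_at) had 264, 289 and 295 in Vhl-deleted arrays, against 337, 336 and 258 in wild-type arrays, with a change of -0.12. The next (1416740_at) had 289, 307 and 408 in Vhl-deleted arrays, against 231, 241 and 259 in wild-type arrays, did not overlap, and had a change of 0.40 (adjusted p = 0.978 in the fit over all probe sets). The third (1416741_at) had a change of 0.20. No direction can therefore be given for Col5a1. Col5a3, a type V chain of restricted expression, was below the filter and had changes of -0.57 and -0.53 on its 2 probe sets (adjusted p = 0.978 for each). On the dimmer of these (1425984_at) all 3 Vhl-deleted arrays, at 1.65 to 1.94, lay below the wild-type arrays, at 7.32 to 29.0, all of them near or under the pseudocount. Col27a1, a fibrillar chain of cartilage and other tissues, had 400, 484 and 516 in Vhl-deleted arrays, against 450, 468 and 132 in wild-type arrays (1453191_at). Its change of 0.55 was the largest of any tested member, with a 95% interval of -0.45 to 1.55, and it was 0.02 without wild-type replicate 3. The second probe set (1429549_at) was also lowest in that array, at 93.8, and changed by 0.09.

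Both multiplexins had negative changes, and in both the groups overlapped. The C-terminal piece of the type XVIII chain is endostatin, an inhibitor of vessel growth. Col18a1 (1426955_at) had 3454, 3615 and 4007 in Vhl-deleted arrays, against 3691, 4190 and 4373 in wild-type arrays. Its 6 arrays lay within a 1.27-fold range, the narrowest of the tested members, and the change was -0.14 (95% interval -0.40 to 0.12, limma adjusted p = 0.944). The other probe set (1418237_s_at) changed by -0.07. Col15a1 had 493, 575 and 509 in Vhl-deleted arrays, against 695, 424 and 738 in wild-type arrays, with a change of -0.19 (95% interval -0.69 to 0.31) and of -0.05 without wild-type replicate 3 and -0.43 without wild-type replicate 2, its lowest array (limma unadjusted p = 0.0214, adjusted p = 0.800). The Vhl-deleted arrays were close together and inside the wild-type range.

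**Figure D2:**
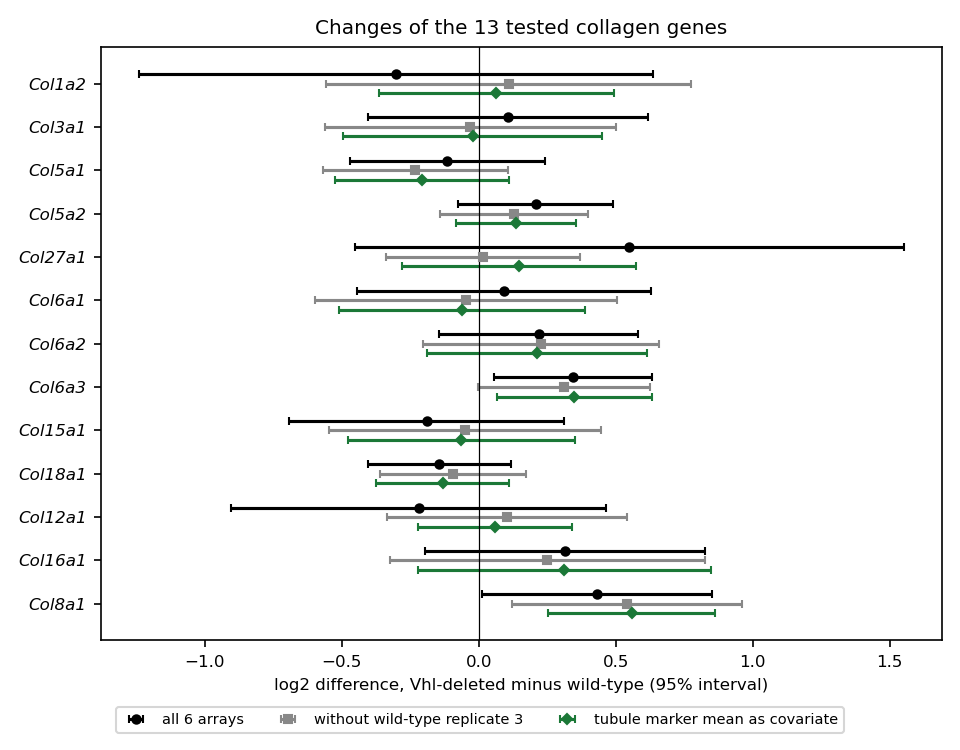
Log2 difference in signal + 28, Vhl-deleted minus wild-type, with 95% interval, for the 13 tested collagen genes over all 6 arrays (circles), without wild-type replicate 3 (squares) and with the tubule marker mean as a covariate (diamonds). Col8a1 is at 0.43, 0.54 and 0.56 and Col6a3 at 0.34, 0.31 and 0.35, while Col27a1 is at 0.55, 0.02 and 0.15 and Col1a2 is at -0.30, 0.11 and 0.06.

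The FACIT chains Col12a1 and Col16a1 were tested. Type XII binds to type I fibrils. Col12a1 (1434411_at) had 495, 459 and 352 in Vhl-deleted arrays, against 443, 360 and 807 in wild-type arrays. As in Col1a2, wild-type replicate 3 was highest and Vhl-deleted replicate 3 lowest, and the change of -0.22 (SE 0.29) became 0.10 without wild-type replicate 3. The next probe set (1427391_a_at) had 303, 196 and 185 in Vhl-deleted arrays, against 171, 199 and 181 in wild-type arrays, with a change of 0.25. Wild-type replicate 3 was not high there. Col16a1 had 203, 226 and 180 in Vhl-deleted arrays, against 216, 125 and 141 in wild-type arrays. Its change was 0.32 (95% interval -0.20 to 0.83, limma adjusted p = 0.944), with 1 wild-type array in the middle of the Vhl-deleted ones. Without that array, wild-type replicate 1, the change was 0.52 (limma unadjusted p = 0.0347, adjusted p = 0.866), and without wild-type replicate 2, the lowest, it was 0.18.

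Over the 13 tested genes, wild-type replicate 3 was the brightest array in 4 (Col1a2, Col12a1, Col15a1 and Col18a1) and the dimmest in 6 (Col3a1, Col5a1, Col5a2, Col6a1, Col6a3 and Col27a1). Over all genes tested it was the brightest in 31.2% and the dimmest in 27.5%. Its tubule marker mean is the lowest of the 6, and Vhl-deleted replicate 3 has the highest. The Col12a1 signal was highest in the array with the lowest tubule mean and lowest in the one with the highest, and Col1a2 had the same 2 arrays at its ends. Col27a1, Col5a2, Col3a1 and Col6a1 had these 2 arrays at the opposite ends. With the tubule mean as a covariate the changes were 0.06 for Col1a2, 0.06 for Col12a1 and 0.15 for Col27a1. They were 0.14 for Col5a2, -0.02 for Col3a1 and -0.06 for Col6a1. These genes were picked because their end arrays are those of extreme tubule mean, so their changes cannot test a tubule part. For the other members the changes were 0.35 (Col6a3), 0.56 (Col8a1), 0.31 (Col16a1), 0.21 (Col6a2), -0.21 (Col5a1), -0.13 (Col18a1) and -0.06 (Col15a1). With the covariate, 0 of the 13 members passed, against 37 of all 11159 genes tested. The interstitial fibroblast marker mean, over only 4 genes, was 10.00 to 10.06 in Vhl-deleted arrays and 9.90 to 10.16 in wild-type arrays. The mesangial and smooth muscle marker mean was 11.36 to 11.56 in Vhl-deleted arrays and 11.06 to 11.40 in wild-type arrays. The immune marker mean was 9.43 to 9.89 in Vhl-deleted arrays and 8.78 to 9.33 in wild-type arrays. Of its 11 tested markers, 0 passed the threshold, against 0.0717% of all genes tested that rose and 0.00896% that fell. At an unadjusted limma p under 0.05, 6 of the 11 were higher in Vhl-deleted arrays, against 2.51% of all genes tested. In 6 of the 11 all Vhl-deleted arrays lay above all wild-type arrays, against 5.04%, and in 0 below, against 5.64%. By both counts these 6 were the antigen presentation genes H2-Eb1, Cd74, H2-Aa and H2-Ab1, with Ptprc and Csf1r. The other tested markers of this list overlapped between the groups, and Adgre1 had a change of -0.13. The part of these cells in the collagen values was not tested.

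**Figure D3:**
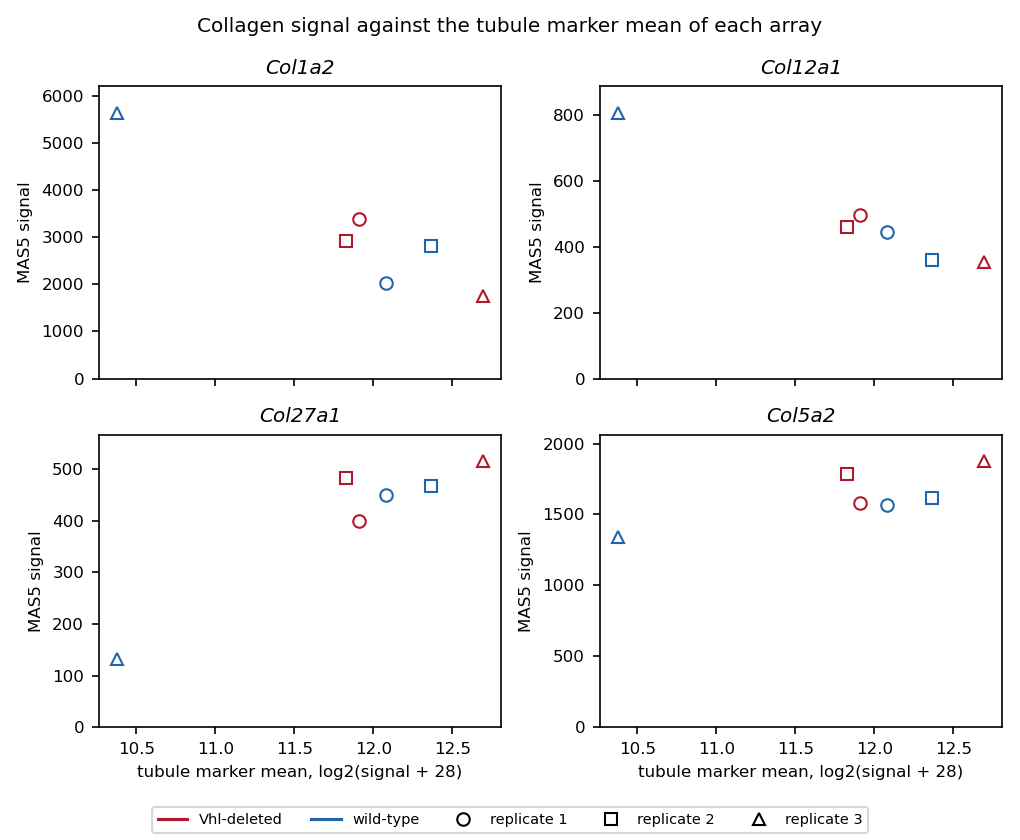
MAS5 signal of Col1a2, Col12a1, Col27a1 and Col5a2 against the mean log2(signal + 28) of 22 tubule markers in each array, with colours for the groups and symbols for the replicate numbers. Wild-type replicate 3, at a tubule mean of 10.38, has the highest Col1a2 and Col12a1 and the lowest Col27a1 and Col5a2 signals.

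The other 23 genes had no probe set above the filter, and their 43 probe sets had geometric mean signals of 3.84 to 92.9. Nearest below the filter were Col26a1 (92.9), a chain of testis and ovary, and Col14a1 (92.9), a FACIT chain of skin and tendon, and nearest above it among the genes was Col3a1 (118). The cartilage chains Col2a1, Col9a1, Col9a2, Col9a3, Col10a1, Col11a1 and Col11a2 were all below it, as were the epithelial Col7a1 and Col17a1, the transmembrane Col13a1, Col23a1 and Col25a1, and Col19a1, Col20a1, Col22a1 and Col24a1. Tests over all 34945 probe sets with 1 symbol, without a filter, called 0 of the 70 members, against 0.0372% of all. At an unadjusted p under 0.05 there were 5 of 70, against 4.70% of all. In 7 of 70 every Vhl-deleted array lay above every wild-type array, against 4.68% of all, and in 1 of 70 below, against 5.29%. The probe set of lowest p was 1458189_at of Col26a1, at 54.1, 40.5 and 28.8 in Vhl-deleted arrays, against 8.99, 2.20 and 10.1 in wild-type arrays. It had a change of 0.97 (SE 0.23, adjusted p = 0.697) without overlap, at signals around the pseudocount. The brighter Col26a1 probe set (1425310_a_at) had 93.0, 97.3 and 143 in Vhl-deleted arrays, against 122, 87.6 and 41.8 in wild-type arrays, with overlap and a change of 0.37. In the other direction, Col22a1, a FACIT chain of tissue junctions, had a change of -0.78 (SE 0.34, adjusted p = 0.978) on 1446851_at, while its other probe sets were at 0.34 and -0.07.

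**Figure D4:**
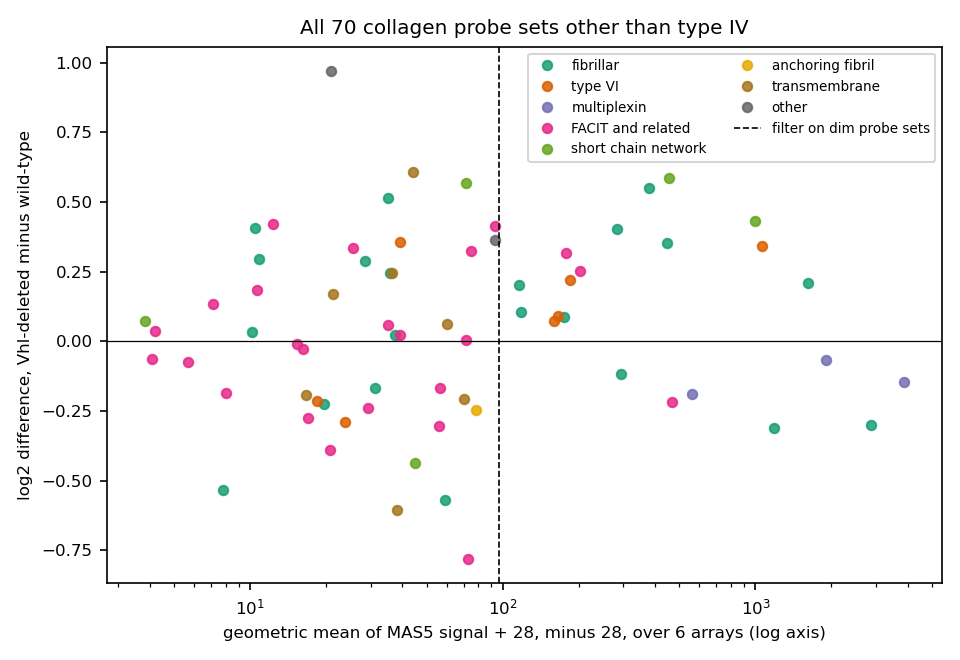
Log2 difference, Vhl-deleted minus wild-type, of all 70 probe sets against their geometric mean signal over the 6 arrays (log axis), coloured by collagen class, with the filter at 96.4 as a dashed line. Above the line the differences lie between -0.31 and 0.59, and the widest ones, 0.97 for Col26a1 and -0.78 for Col22a1, belong to dim probe sets.

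Genes that make, bind or degrade collagen, or inhibit its degradation, gave 0 members past the threshold over all genes. Of all genes tested, 0.0717% rose and 0.00896% fell. Of 15 tested hydroxylases and chaperones, 11 had positive changes, against 50.9% of all genes tested. Their median change was 0.15, against 0.00 over all genes tested. The lysyl hydroxylase genes Plod2 (0.81, adjusted p = 0.170) and Plod1 (0.31, adjusted p = 0.944) had the lowest p there. Of 5 tested propeptide proteinase and crosslinking genes the median was 0.12, with the lysyl oxidase genes Loxl3 at 0.46 and Lox at 0.28. The 9 tested fibril partners had a median of 0.26, with biglycan (Bgn), a small proteoglycan of fibrils, at 0.42 and thrombospondin 1 (Thbs1) at 0.35. The 9 tested receptors had a median of 0.22, with Itga2, a chain of a collagen-binding integrin, at 0.83 and Antxr1, a collagen-binding anthrax toxin receptor, at 0.30. The degradation list includes Timp2 and Timp3, which encode inhibitors of matrix metalloproteinases. All 5 of its tested genes, these inhibitors among them, had positive changes, against 50.9% of all genes tested. Their median was 0.33, with the gelatinase gene Mmp2 at 0.44 and the cathepsin K gene Ctsk at 0.53. The adjusted p of the genes named here other than Plod2 lay between 0.633 and 0.944. For comparison, the 6 type IV chains had a median of 0.22, and the difference from the 13 members was not tested. By class, the tested members had medians of 0.11 (5 fibrillar), 0.22 (3 type VI), -0.17 (2 multiplexins) and 0.05 (2 FACIT).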

How the data were processed

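Glomerular RNA of 6 mice was measured on Affymetrix arrays, 1 per mouse. The deposited values are MAS5 signals, intensities on a linear scale, per the submitters' processing notes, which give no version. The values show scaling to a 2% trimmed mean of 500. No array pair was identical. Detection calls were not used here. Symbols came from the array annotation, with current names through Entrez numbers in a RefSeq table (34741 of 34945 probe sets with 1 symbol matched); all members kept their annotated symbol.

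Values were taken as log2(signal + 28), 28 being the 25th percentile of all values, which shrinks changes of dim genes. Probe sets in the upper 50% by mean log2 level were kept and the brightest stood for each gene, leaving 11159 genes. The groups, taken from the labels, were tested by lmFit and trended eBayes (limma 3.58.1, R 4.3.3), Benjamini-Hochberg adjusted over all genes, threshold 0.05. A second fit used all 34945 probe sets without a filter. The test was tried on simulated data. Figures used matplotlib 3.10.9.

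Members, gene lists and tests were chosen with earlier results of these data known. Array values are named for members past the threshold, the 12 of lowest p and a fixed set of 12 genes; of pathway lists, the 2 of lowest p. Alternatives changed scaling, pseudocount, filter, probe set choice, variance model, weights, replicate block, tubule covariate and threshold, and left out each array. Same-numbered arrays did not deviate together (correlations of -0.02, -0.41 and -0.51). With 3 arrays per group this cannot exclude a pairing. The labels name none, so the main fit used none.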

Additional observations from a re-analysis of the deposited data

How the results depend on the processing

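In all 22 settings, the 21 alternatives included, 0 collagen genes passed, while the number of all genes called ran from 1 to 37. In all 16 settings tried for probe sets 0 of 70 passed. Of all 34945 probe sets, 13 were called in the main setting, 2 with the replicate block and 21 with array weights. The lowest adjusted p of a collagen gene was 0.269. The median change of the tested collagen genes, 0.11, moved by more than the 0.05 spread between replicates with quantile normalization (0.0513), without a filter (0.0473 over 36 genes) and in the upper 30% (0.0325 over 8 genes), and leaving out each array gave medians of -0.0092 (without Vhl-deleted replicate 3) to 0.24 (without Vhl-deleted replicate 1). Among the 43 tested genes of the collagen pathway, Plod2 passed with array weights (1 gene, limma adjusted p = 0.0145), where 33 of all 11159 genes passed. Plod2 and P4ha1 passed with the tubule covariate (2 genes, limma adjusted p = 0.0238 and 0.0269), where 37 of all 11159 genes passed.

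Col6a3, Col8a1, Col6a2, Col16a1, Col5a2, Col27a1, Col15a1 and Col18a1 kept their sign in every setting where they were tested, but Col27a1 ran from 0.02 to 0.83, Col15a1 from -0.43 to -0.05 and Col16a1 from 0.18 to 0.52. The sign turned with array weights in Col1a2 (0.26), Col12a1 (0.11), Col6a1 (-0.17) and Col3a1 (-0.12), and with the tubule covariate in the same 4 (0.06425, 0.0590, -0.0593 and -0.0222). The mean of the kept probe sets turned Col12a1 (0.0159) and Col5a1 (0.16), and the most variable probe set turned Col5a1 (0.40). Leaving out each array gave -0.62 to 0.11 for Col1a2, -0.45 to 0.10 for Col12a1 and -0.23 to 0.40 for Col5a1. For Col5a1 the low end, without wild-type replicate 3, used the same probe set as the main fit. At its high end, without wild-type replicate 2, another probe set was the brightest. The ranges were -0.0767 to 0.25 for Col6a1 and -0.0302 to 0.23 for Col3a1. Without wild-type replicate 3, Col6a1 and Col3a1 were at -0.05 and -0.03. With the replicate block, 0 collagen genes passed and 1 of all genes did. Ranking brightness by linear signals, an alternative chosen after seeing the data, left the median at 0.11 and 0 collagen genes called. Detection calls were not used, so how far dim signals stand above background is not given here.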
